A study of Homo sapiens with 12 samples.

Results

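Transcripts of 9 genes that hypoxia-inducible factors are known to induce were followed with 10 array probes in WM35, an established human melanoma cell line. The probes were chosen by identifier, 10 of the 38223 probes of the authors' processed table, and the choice of genes was made with earlier results of these data known. They are NDRG1 (ILMN_1809931), DDIT4 (ILMN_1661599), ANGPTL4 (ILMN_1707727), VEGFA (ILMN_2375879 and ILMN_1803882), BNIP3 (ILMN_1724658), ADM (ILMN_1708934), PFKFB4 (ILMN_1653292), PFKFB3 (ILMN_2186061) and STC1 (ILMN_1758164). The platform annotation gave the stated gene for all 10. Cells in medium with 5% serum received ciclopirox, crizotinib or the vehicle DMSO, each drug at the concentration that had inhibited 75% in a 72 h assay. Ciclopirox, an antifungal drug, chelates iron, and crizotinib blocks receptor tyrosine kinases such as MET and ALK. By their titles, the 12 Illumina expression arrays hold 3 of each drug for 8 h, 2 of each drug for 24 h, and 2 controls.

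Hypoxia-inducible factors are transcription factors made of an alpha subunit, such as HIF1A or EPAS1, and the beta subunit ARNT. Prolyl hydroxylases of the EGLN family, which need oxygen and ferrous iron, mark the alpha subunit for destruction through VHL. When oxygen or iron is short the alpha subunit accumulates, and the dimer binds hypoxia response elements beside genes of blood vessel growth, glycolysis, mitochondrial turnover and growth control.

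The deposited tables disagreed on which array belongs to which sample, and every result below depends on which is followed. A non-normalized table names arrays by chip position, which the sample descriptions also give, whereas the processed table has 1 column per sample. Over 12599 probes detected on all arrays, each processed column correlated with exactly 1 array at r between 0.9991 and 0.9994, and with no other array above 0.9954. That array was the one in the sample's description for the 2 controls and another one for the remaining 10 samples. In the processed table all 12 arrays were closest to an array of their own title (mean r 0.36 over 9 same-title pairs, -0.15 over 57 others, over centred probes). By description, 5 of 12 were (mean r 0.16 and -0.12). Unless said otherwise, the values below follow the sample columns of the processed table. Differences from control by description are given for each member, and other comparisons by description as counts and ranges. This choice was made after both had been seen, and the labels alone do not establish which is right.

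**Figure D1:**
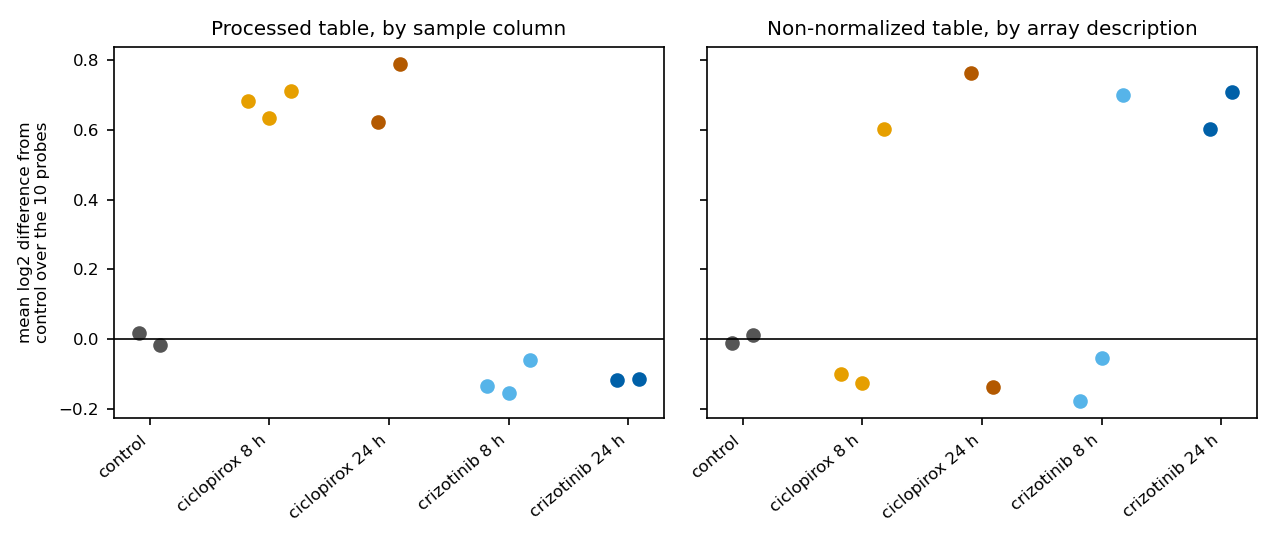
Mean log2 difference from the 2 control arrays over the 10 probes, 1 point per array, with arrays assigned by the sample columns of the processed table (left) and by the array descriptions (right). On the left the 5 ciclopirox arrays lie between 0.62 and 0.79 and the 5 crizotinib arrays between -0.16 and -0.06, and on the right both drugs have arrays near 0.6 or above and arrays below 0.

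All 12 arrays lay on 1 BeadChip and each group fills consecutive positions, so group and position cannot be told apart. Controls carry no time in their titles, and the same 2 served both times. The labels do not say whether arrays came from separate cultures, and p-values therefore measure only the spread between these arrays. Arrays detected 15561 to 17106 probes. SOX10, a melanocyte lineage factor, was detected on 12 arrays (log2 level 10.99 to 11.62) and MITF on 11. The pigment genes MLANA, PMEL, TYR and TYRP1, and S100B, were detected on none, so 2 of the 7 melanocytic markers with a probe could be seen. Of 5 fibroblast markers, COL1A1, COL3A1 and DCN were detected on none and COL1A2 on 1 array. LUM (ILMN_1790529) was detected on 10 arrays, at log2 levels from 4.46 to 6.03. It was lower at 24 h of ciclopirox (log2 difference from control -0.69, adjusted p 0.00576) and higher at 24 h of crizotinib (0.69, adjusted p 0.00394), and its part in the results was not tested. By description, neither LUM nor SOX10 passed in any of the 9 comparisons. In bulk RNA, a change in the share of some cells and a change in RNA per cell cannot be told apart.

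The promoters of the 3 genes that were called higher at 8 h of ciclopirox are printed as examples. They were searched for ACGTG and GCGTG, core motifs of the hypoxia response element. Sequences are from RefSeq on GRCh38.p14, 250 bases before to 50 after the start site, 5′ to 3′ on the gene's strand. Capitals mark ACGTG or GCGTG on either strand, so that CACGT and CACGC are matches on the opposite strand and CACGTG holds ACGTG on both.
DDIT4 (chr10:72273674-72273973, plus strand): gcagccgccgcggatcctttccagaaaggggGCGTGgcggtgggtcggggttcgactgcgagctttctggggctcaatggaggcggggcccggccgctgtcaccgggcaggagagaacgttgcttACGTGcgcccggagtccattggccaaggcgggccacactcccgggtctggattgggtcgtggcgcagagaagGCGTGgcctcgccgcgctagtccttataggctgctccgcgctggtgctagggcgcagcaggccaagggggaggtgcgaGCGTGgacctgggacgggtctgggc
ANGPTL4 (chr19:8363905-8364204, plus strand): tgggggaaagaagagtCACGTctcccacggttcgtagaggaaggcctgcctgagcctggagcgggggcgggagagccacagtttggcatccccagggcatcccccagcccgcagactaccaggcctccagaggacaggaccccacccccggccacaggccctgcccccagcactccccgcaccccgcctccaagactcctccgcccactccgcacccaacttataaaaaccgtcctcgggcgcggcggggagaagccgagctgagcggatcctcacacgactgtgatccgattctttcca
BNIP3 (chr10:131981874-131982173, minus strand): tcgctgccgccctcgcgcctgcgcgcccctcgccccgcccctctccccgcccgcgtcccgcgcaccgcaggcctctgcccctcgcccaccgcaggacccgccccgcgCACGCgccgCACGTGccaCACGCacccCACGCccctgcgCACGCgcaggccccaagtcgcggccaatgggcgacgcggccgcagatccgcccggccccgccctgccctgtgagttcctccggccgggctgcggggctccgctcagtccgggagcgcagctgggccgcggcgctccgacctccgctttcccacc
DDIT4 held 4 matches, ANGPTL4 held 1 and BNIP3 held 6, of which 2 are the strands of the same CACGTG. ADM and PFKFB4 held 1 each, and the windows at both PFKFB3 starts held 1 and 2. Thus 7 of 7 windows, of 6 genes, had a match, as did 48.5% of the 35116 windows of this length (ACGTG in 21.4%, GCGTG in 36.5%), and 4.40% of all windows had 4 or more. NDRG1, STC1 and VEGFA are named only. A match describes letters in a window and shows no binding.

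**Figure D2:**
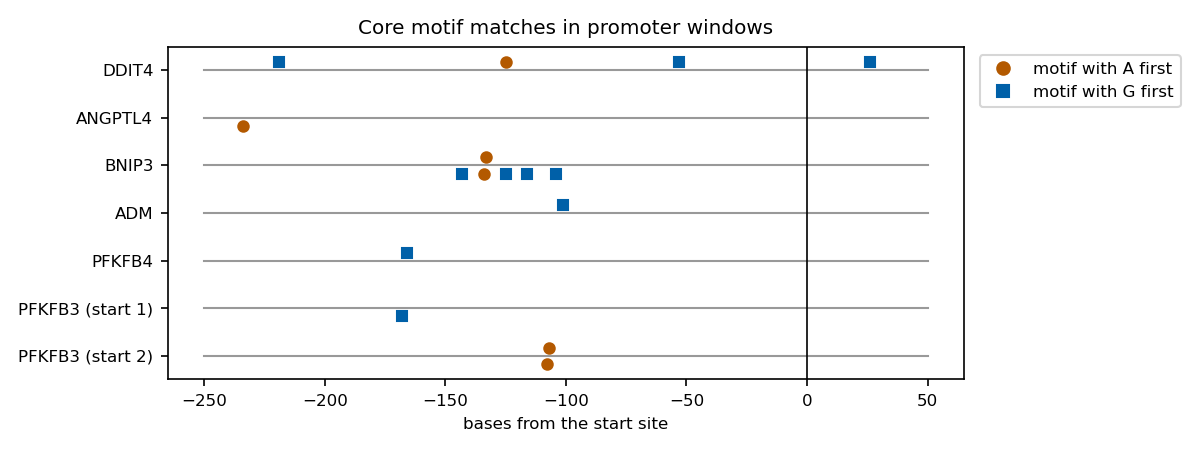
Positions of ACGTG (circles) and GCGTG (squares) in 7 promoter windows of 6 member genes, with the horizontal axis in bases from the start site. Markers above a line are on the gene's strand and markers below it on the opposite strand, and BNIP3 carries 6 matches between -143 and -104.

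Ciclopirox raised 3 of the 10 probes at 8 h (DDIT4, ANGPTL4 and BNIP3) and 6 at 24 h (NDRG1, DDIT4, ANGPTL4, both VEGFA probes and STC1). At 8 h, 0.315% of the 16216 probes tested were called higher and 0.241% lower. At 24 h these shares were 6.57% and 7.04%, so that many other probes had moved as well. By limma, 0 of the 10 fell at either time. At an unadjusted p below 0.05 there were 9 higher and 0 lower at 8 h, and 7 higher and 1 lower at 24 h. The share of all probes at that threshold was not counted. VEGFA ILMN_1803882, at p 0.0275, ranked 1414 of the 16216 probes at 8 h, and BNIP3, at p 0.0113, ranked 2697 at 24 h. At least that many of all probes, in either direction, thus had a p below 0.05. The median difference of the 10 probes from control was 0.58 on the log2 scale at 8 h, against -0.04 over all probes tested, and 0.79 against -0.03 at 24 h. The 8 h count rests on the controls: it was 0 without control replicate 2 and 1 without control replicate 1. With only the compared groups in the fit it was 1. Calls over all probes fell in these fits as well, from 90 to 4 with only the compared groups.

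Crizotinib gave another picture. At 8 h, 2 probes were lower than control (ANGPTL4 and PFKFB3) and 0 higher by limma, where 0.648% of all probes tested were called lower and 0.796% higher. At an unadjusted p below 0.05 there were 2 in each direction, and ADM, at p 0.0407, ranked 2114 of the 16216 probes. At 24 h, NDRG1, DDIT4 and PFKFB4 were higher and ANGPTL4, ADM and PFKFB3 lower, beside 9.11% and 9.08% of all probes. The median difference of the 10 probes was -0.06 at 8 h and -0.29 at 24 h, against -0.01 and -0.02 over all probes. Calls over all probes at 8 h numbered 234, and fewer when a control or a crizotinib 8 h array was left out. They numbered 62, 43 and 118 with no detection filter, only the compared groups and the replicate number as a block. In those fits the 8 h count of the 10 probes was 0. It fell to 0 when either control, crizotinib 8 h replicate 1 or crizotinib 8 h replicate 2 was left out, and to 1 without replicate 3, and the 24 h count was 3 without either control.

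**Figure D3:**
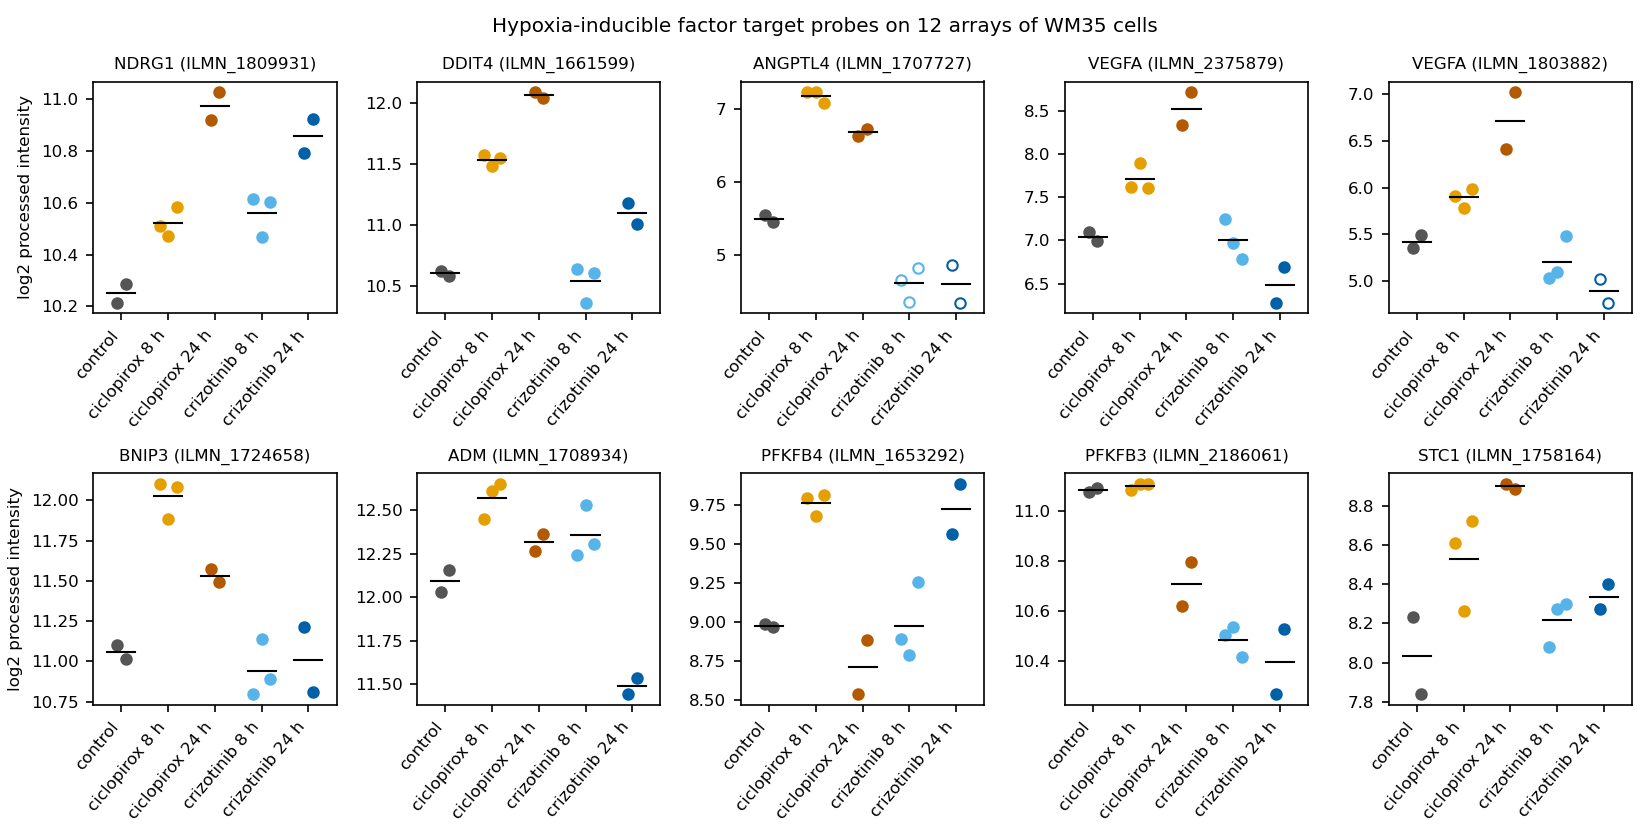
Log2 processed intensity of the 10 probes on each of the 12 arrays, grouped by treatment. Points are arrays, horizontal lines are group means, and open points mark a detection p of 0.01 or more on the matched array, which occurs for ANGPTL4 on 5 crizotinib arrays and for VEGFA ILMN_1803882 on 2.

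ANGPTL4 encodes a secreted inhibitor of lipoprotein lipase. Its log2 levels were 5.54 and 5.45 in the controls, 7.22, 7.23 and 7.08 at 8 h of ciclopirox, and 6.63 and 6.73 at 24 h. On the crizotinib arrays they were 4.67, 4.36 and 4.83 at 8 h and 4.86 and 4.35 at 24 h, and the probe was not well above background on any of those 5. Every ciclopirox array was thus above both controls and every crizotinib array below them. ANGPTL4 rose 3.20-fold at 8 h (log2 difference 1.68, SE 0.16, adjusted p 0.00276) and 2.26-fold at 24 h (1.18, SE 0.18, adjusted p 0.00226). These sizes depended on the processing. In other settings that follow the sample columns the log2 differences were as low as 1.06 at 8 h and 0.73 at 24 h. Under crizotinib ANGPTL4 was at least 1.58-fold lower than control at 8 h (adjusted p 0.0303) and at least 1.57-fold lower at 24 h (adjusted p 0.00685). These bounds set the brighter group's mean against the higher of the dim signal and the lowest detected signal on each dim array, and hold for the scale of the processed table. In the matched non-normalized table with an offset of 50, which compresses dim signals, the log2 differences were -0.58 and -0.52. By description, ANGPTL4 differed from control by -0.31 and -0.03 at 8 h and 24 h of ciclopirox and by -0.17 and 1.38 with crizotinib, none past the threshold.

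VEGFA encodes the vascular endothelial growth factor that drives vessel growth. On probe ILMN_2375879 the controls had log2 levels of 7.09 and 7.00, ciclopirox 7.62, 7.90 and 7.60 at 8 h, and 8.34 and 8.72 at 24 h. Crizotinib gave 7.25, 6.97 and 6.79 at 8 h and 6.28 and 6.70 at 24 h. All ciclopirox arrays lay above every other array, those of 24 h highest, while crizotinib overlapped the controls at 8 h and lay below them at 24 h. The rise at 24 h of ciclopirox was 2.80-fold (log2 difference 1.48, SE 0.20, adjusted p 0.00102). At 8 h the difference of 0.66 did not pass (SE 0.18, adjusted p 0.139). Probe ILMN_1803882 gave 5.35 and 5.49 in the controls, 5.91, 5.78 and 5.99 and then 6.41 and 7.02 under ciclopirox, and 5.03, 5.09 and 5.48 and then 5.02 and 4.77 under crizotinib. Its 24 h rise under ciclopirox was 2.46-fold (1.30, SE 0.20, adjusted p 0.00259). In other settings that follow the sample columns this log2 difference was as low as 0.87. Both probes followed each other over the 12 arrays (r 0.91, a description). With crizotinib at 24 h, ILMN_2375879 differed from control by -0.56 (adjusted p 0.0738). ILMN_1803882 was not well above background on either of those arrays. On the processed scale its mean there was at least 1.43-fold below control (adjusted p 0.103). In other settings that follow the sample columns its log2 difference was as small as -0.28. Neither probe passed. By description, both probes differed from control by 0.84 and 0.67 at 24 h of ciclopirox and by 0.66 and 0.51 at 24 h of crizotinib, and neither passed at any time.

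ADM encodes adrenomedullin, a vasodilator peptide. It had log2 levels of 12.03 and 12.16 in the controls, 12.45, 12.61 and 12.65 and then 12.27 and 12.37 under ciclopirox, and 12.24, 12.53 and 12.30 under crizotinib at 8 h. At 24 h of crizotinib, 11.44 and 11.53 were the lowest of the 12 arrays. Only that fall passed against control (1.52-fold, log2 difference -0.61, SE 0.12, adjusted p 0.00766). The ciclopirox differences were 0.48 at 8 h (adjusted p 0.101) and 0.22 at 24 h (adjusted p 0.264). STC1 encodes stanniocalcin, a secreted glycoprotein of calcium and phosphate balance. Its controls differed from each other, 8.23 and 7.84, and ciclopirox gave 8.61, 8.26 and 8.72 at 8 h and 8.91 and 8.88 at 24 h. Crizotinib arrays lay between 8.08 and 8.40, inside or near the range of the controls. STC1 rose 1.82-fold at 24 h of ciclopirox (0.86, SE 0.17, adjusted p 0.0084), and the 8 h difference of 0.50 did not pass (adjusted p 0.207). By description, ADM differed from control by -0.35 and 0.19 at 8 h and 24 h of ciclopirox and by 0.36 and 0.53 with crizotinib. STC1 differed by 0.57, 0.53, 0.39 and 0.54 in the same order, and neither gene passed.

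PFKFB3 and PFKFB4 encode bifunctional enzymes that set the level of fructose 2,6-bisphosphate, an activator of glycolysis. PFKFB4 had log2 levels of 8.99 and 8.97 in the controls, 9.79, 9.68 and 9.82 at 8 h of ciclopirox, and 8.54 and 8.88 at 24 h. Under crizotinib the order of the times was the reverse, with 8.89, 8.79 and 9.26 at 8 h and 9.56 and 9.89 at 24 h. The rise at 24 h of crizotinib was 1.68-fold (log2 difference 0.75, SE 0.17, adjusted p 0.0139). The difference at 8 h of ciclopirox was 0.79 and did not pass (SE 0.16, adjusted p 0.0642). PFKFB3 did not follow it: the controls had 11.07 and 11.09, ciclopirox at 8 h 11.09, 11.11 and 11.11, and at 24 h 10.62 and 10.80. Crizotinib gave 10.50, 10.53 and 10.42 and then 10.27 and 10.53, all below the controls. PFKFB3 fell 1.51-fold at 8 h (-0.60, SE 0.10, adjusted p 0.0223) and 1.61-fold at 24 h of crizotinib (-0.69, SE 0.11, adjusted p 0.00248). The 8 h fall was not called with no detection filter, with only the compared groups in the fit or with the replicate block. At 8 h of ciclopirox its difference from control was 0.02, with a 95% interval of -0.21 to 0.25, and at 24 h it was -0.37 (adjusted p 0.0527). By description, PFKFB4 differed from control by 0.39 and -0.04 with ciclopirox and 0.32 and 0.78 with crizotinib at 8 h and 24 h, and PFKFB3 by -0.60, -0.44, -0.40 and 0.03, none past the threshold.

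DDIT4 encodes an inhibitor of the growth kinase complex mTORC1. Its log2 levels were 10.63 and 10.59 in the controls, 11.57, 11.48 and 11.55 at 8 h of ciclopirox and 12.09 and 12.04 at 24 h. Crizotinib arrays had 10.64, 10.37 and 10.61 at 8 h, around the controls, and 11.19 and 11.01 at 24 h, above them. DDIT4 rose 1.90-fold at 8 h (log2 difference 0.93, SE 0.11, adjusted p 0.00474) and 2.75-fold at 24 h of ciclopirox (1.46, SE 0.12, adjusted p 6.6e-05). With crizotinib it rose 1.41-fold at 24 h (0.49, SE 0.12, adjusted p 0.0158). By description, DDIT4 differed from control by 0.81 and 0.74 with ciclopirox and 0.26 and 0.93 with crizotinib at 8 h and 24 h, none past the threshold.

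BNIP3 encodes a mitochondrial outer membrane protein that acts in mitophagy. The controls had log2 levels of 11.10 and 11.02, ciclopirox 12.10, 11.89 and 12.08 at 8 h, and 11.57 and 11.49 at 24 h. Crizotinib arrays ranged from 10.80 to 11.21 and overlapped the controls at both times. BNIP3 rose 1.95-fold at 8 h of ciclopirox (0.97, SE 0.14, adjusted p 0.0172), and its 24 h difference of 0.47 did not pass (SE 0.16, adjusted p 0.0681). NDRG1 encodes a protein tied to stress responses and differentiation. It had 10.22 and 10.29 in the controls, 10.51, 10.47 and 10.58 and then 10.92 and 11.03 under ciclopirox, and 10.61, 10.47 and 10.60 and then 10.79 and 10.92 under crizotinib. All 10 treated arrays were above both controls. NDRG1 rose at 24 h of both drugs, 1.65-fold with ciclopirox (0.72, SE 0.10, adjusted p 0.00169) and 1.52-fold with crizotinib (0.61, SE 0.10, adjusted p 0.00304). By description, BNIP3 differed from control by 0.14 and 0.10 with ciclopirox and 0.32 and 0.89 with crizotinib at 8 h and 24 h, none past the threshold. NDRG1 differed by 0.61, 0.57, 0.26 and 0.29 in the same order, of which the first passed.

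**Figure D4:**
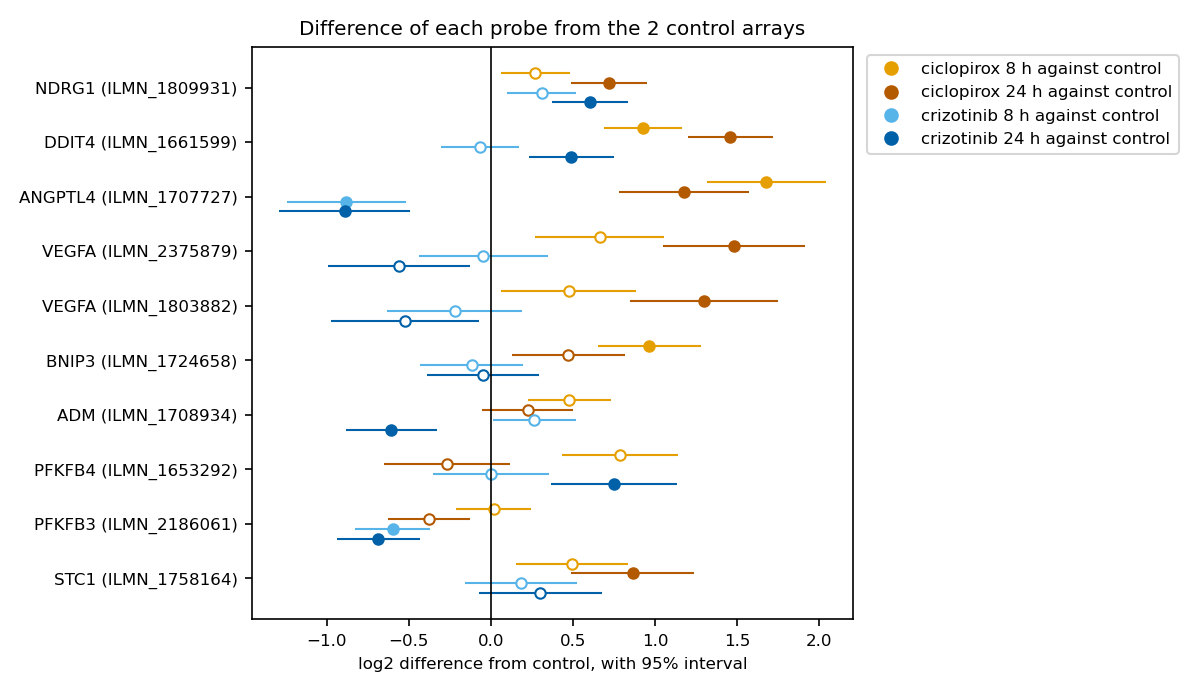
Log2 difference of each probe from the 2 controls for both drugs and times, with 95% intervals from the limma fit. Filled points have an adjusted p below 0.05, and ANGPTL4 has ciclopirox differences of 1.68 and 1.18. The ANGPTL4 points of crizotinib, and that of VEGFA ILMN_1803882 at 24 h, rest on signals not well above background and show no exact size.

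Set against each other, ciclopirox exceeded crizotinib on 7 probes at 8 h and was lower on 0 by limma, where 1.39% of all probes were called higher and 2.41% lower. The 7 were DDIT4, ANGPTL4, both VEGFA probes, BNIP3, PFKFB4 and PFKFB3. At an unadjusted p below 0.05 there were 8 and 0, and STC1, at p 0.0460, ranked 2805 of the 16216 probes. At 24 h, 6 were higher (DDIT4, ANGPTL4, both VEGFA probes, BNIP3 and ADM) and PFKFB4 was lower, beside 6.46% and 7.44% of all probes. BNIP3 only just passed there (0.52, SE 0.16, adjusted p 0.0485). It was not called with median centring, no detection filter, only the compared groups, array weights or the replicate block. ANGPTL4 was at least 5.05-fold higher at 8 h (adjusted p 2.10e-05) and at least 3.56-fold higher at 24 h (adjusted p 4.08e-05) on the processed scale. With the matched non-normalized table and an offset of 50 its log2 differences were 1.64 and 1.25. VEGFA ILMN_2375879 was 1.64-fold higher at 8 h (0.71, SE 0.16, adjusted p 0.0364) and 4.12-fold higher at 24 h (2.04, SE 0.20, adjusted p 7.7e-05). VEGFA ILMN_1803882 only just passed at 8 h (0.69, SE 0.17, adjusted p 0.0475). Over 21 other settings that follow the sample columns, the 8 h call was kept in 12 for ILMN_2375879 and in 9 for ILMN_1803882. PFKFB4 was 1.72-fold higher at 8 h (0.79, SE 0.14, adjusted p 0.0138) and 2.02-fold lower at 24 h (-1.02, SE 0.17, adjusted p 0.00342). Averaged over both times, 8 probes were higher with ciclopirox and 0 lower by limma, where 6.01% of all probes were higher and 8.16% lower. The counts were the same at an unadjusted p below 0.05, a threshold at which the share of all probes was not counted. STC1 had the largest p of the 8, 0.00223, and ranked 1568 of the 16216 probes. More probes than that had a p below 0.05. NDRG1 and PFKFB4 were the exceptions. For NDRG1 the drugs differed by -0.04 at 8 h (95% interval -0.23 to 0.15) and 0.11 at 24 h (-0.12 to 0.35). The 8 h count was 4 without ciclopirox 8 h replicate 1, without ciclopirox 8 h replicate 3 or without crizotinib 8 h replicate 2. Calls over all probes at 8 h then fell from 616 to 307, 287 and 369.

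Between 8 h and 24 h the probes divided, and drug exposure and time in culture cannot be told apart here. Under ciclopirox, 4 were higher at 24 h than at 8 h (NDRG1, DDIT4 and both VEGFA probes) and 3 were lower (BNIP3, PFKFB4 and PFKFB3), where 9.17% of all probes were higher and 7.00% lower. Of these 7, only DDIT4 and BNIP3 had passed against control at 8 h. VEGFA gained 0.82 on the log2 scale on each probe (SE 0.18 and 0.19, adjusted p 0.0121 and 0.0144), and DDIT4 gained 0.53 (SE 0.11, adjusted p 0.00872). PFKFB4 fell by 1.05 (SE 0.16, adjusted p 0.00197), and BNIP3 fell by 0.49 (SE 0.14, adjusted p 0.0382). With no detection filter, neither BNIP3 nor PFKFB3 was called. The count of 7 was 4 without ciclopirox 24 h replicate 1 and 3 without replicate 2. Under crizotinib, DDIT4 (0.56, SE 0.11, adjusted p 0.0051) and PFKFB4 (0.75, SE 0.16, adjusted p 0.00845) were higher at 24 h and ADM was lower (-0.87, SE 0.11, adjusted p 0.000556), beside 9.99% and 8.68% of all probes. SOX10 (ILMN_1653750) was also higher at 24 h than at 8 h of ciclopirox (0.44, adjusted p 0.0125) and of crizotinib (0.55, adjusted p 0.00337), and its part in these differences was not tested.

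With arrays assigned by description, few of these differences were called. Of the 10 probes, 1 was called at 8 h of ciclopirox against control (NDRG1, log2 difference 0.61, adjusted p 0.0424), where 2.85% of 18285 probes were called in either direction. In the other 8 comparisons limma called 0 of the 10. The shares of all probes were 0.00547% for ciclopirox at 24 h, 2.88% between the drugs at 8 h and 1.99% over both times, and 0.00% in the remaining 5. At an unadjusted p below 0.05, between 0 and 3 of the 10 probes passed in each comparison, and the share of all probes at that threshold was not counted. Between the drugs, differences of the 10 probes by description ran from -0.70 to 0.55 at 8 h and from -1.42 to 0.28 at 24 h. Between the times they ran from -0.43 to 0.84 with ciclopirox and from 0.03 to 1.55 with crizotinib.

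Other genes of the pathway were counted from a list of 50, of which 41 had a probe and 37 were kept by the detection filter. Ciclopirox raised 6 of the 37 at 8 h and lowered 0, and raised 6 and lowered 1 at 24 h. Of all probes, 0.315% were higher and 0.241% lower at 8 h, and 6.57% and 7.04% at 24 h. The median difference was 0.19 and 0.20, against -0.04 and -0.03 over all probes. Genes higher at both times were EDN1, the vasoconstrictor endothelin 1 (0.97, SE 0.16, adjusted p 0.0274, and 1.25, SE 0.18, adjusted p 0.00139), BHLHE40, a transcriptional repressor (0.92 and 0.94), and ALDOC, a glycolytic aldolase (0.73 and 1.05). HK2, which phosphorylates glucose (0.86, adjusted p 0.0258), AK4, a mitochondrial adenylate kinase (0.79, adjusted p 0.0146), and the mitophagy receptor BNIP3L (0.65, adjusted p 0.0372) rose at 8 h, although a second HK2 probe was not called. ANKRD37, MXI1 and RORA rose at 24 h (0.79, 0.56 and 0.77), when EGLN2, one of the hydroxylases, fell (-0.44, adjusted p 0.0456). Crizotinib moved 1 up (CITED2, a competitor of the factor for its coactivators, 1.0 on the log2 scale, adjusted p 0.00441) and 1 down at 8 h (EDN1, -0.83, adjusted p 0.0336), and 10 up and 3 down at 24 h. Of all probes, 0.796% were up and 0.648% down at 8 h of crizotinib, and 9.11% and 9.08% at 24 h. The share of the 37 that fell at 24 h was thus near that of all probes. The 24 h rises included BHLHE40 (1.73, SE 0.11, adjusted p 7e-06) and ALDOC (1.49, SE 0.14, adjusted p 7.9e-05), and EDN1 (-1.70, adjusted p 0.000126), HK2 (-0.67, adjusted p 0.0121) and P4HA1 (-0.47, adjusted p 0.0383) fell. Ciclopirox exceeded crizotinib on 11 of the 37 at 8 h and was lower on CITED2, where 1.39% of all probes were higher and 2.41% lower. At 24 h it was higher on 3 (HK2, P4HA1 and EDN1) and lower on 2 (HMOX1 and BHLHE40), near the 6.46% and 7.44% of all probes. By description, limma called 0 of the 37 in any of the 9 comparisons. Between 2 and 10 had an unadjusted p below 0.05, and the share of all probes at that threshold was not counted.

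HIF1A, VHL and EGLN1 passed the threshold in none of the 4 comparisons with control. For HIF1A (ILMN_1763260) the difference from control was 0.34 at 8 h and 0.20 at 24 h of ciclopirox, and 0.10 and -0.20 with crizotinib (adjusted p 0.429, 0.507, 0.844 and 0.486), and 1 of its other 2 kept probes had the opposite sign in the first 3. By description HIF1A differed from control by -0.0066, 0.06, 0.27 and 0.27 in the same order. Differences of VHL (ILMN_1801984) and EGLN1 (ILMN_1749892) lay between -0.32 and 0.37. ARNT was detected on no array. The protein, at which iron is known to act, was not measured.

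**Figure D5:**
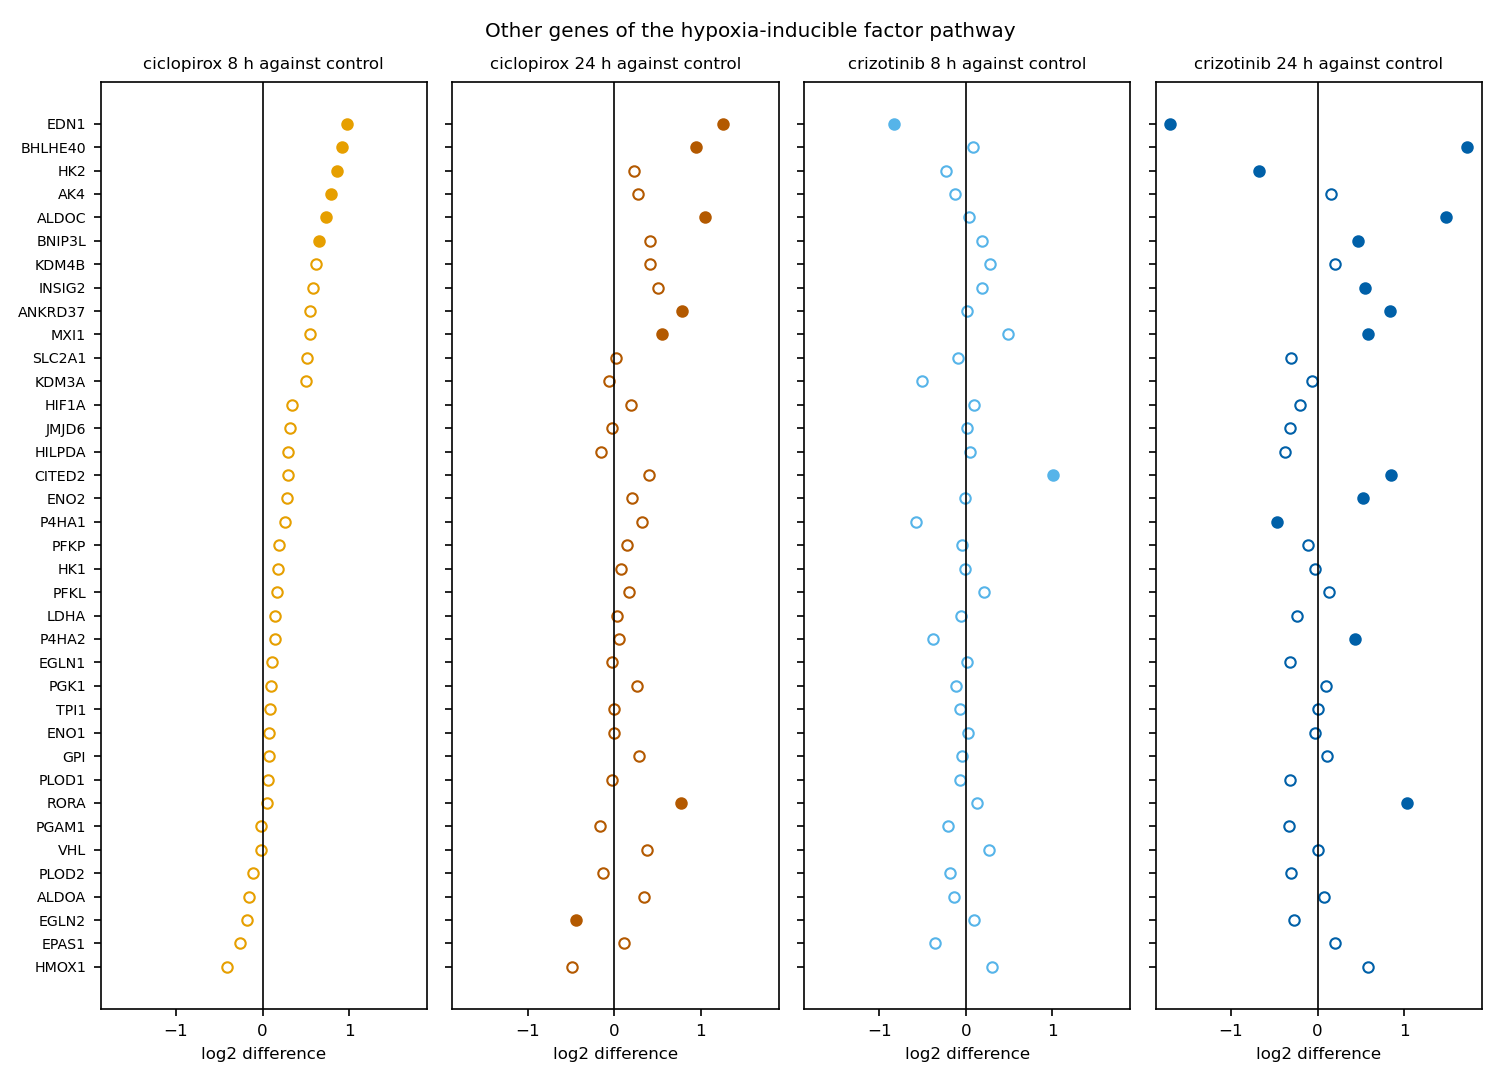
Log2 difference from the 2 controls for 37 other pathway genes, 1 probe each, in 4 panels by drug and time, ordered by the 8 h ciclopirox difference. Filled points have an adjusted p below 0.05: 6, 7, 2 and 13 genes from left to right.

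Likeness between the members varied widely, in correlations that use no group. Over the 12 arrays, which fall into treatment groups, the correlation of a probe with the mean of the other 9 was 0.92 for ANGPTL4, 0.85 for BNIP3 and 0.84 for DDIT4. It was 0.51 for ADM and for PFKFB3, 0.19 for NDRG1 and 0.03 for PFKFB4. Among the other kept probes with 1 gene name (13120), those closest to the members' mean were ADAMTS6, an extracellular protease (r 0.97), RGS2, a regulator of G protein signalling (0.96), and HBEGF, a ligand of the epidermal growth factor receptor (0.96). VLDLR, a lipoprotein receptor (0.95), and PLAUR, the urokinase receptor (0.94), followed. VLDLR had mean log2 levels of 5.91 in the controls, 6.92 and 7.08 at 8 h and 24 h of ciclopirox, and 5.26 and 5.14 under crizotinib.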

How the data were processed

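Gene expression was measured on 12 Illumina HT-12 arrays. Per the file headers, the authors' non-normalized table gives every one of 47230 probes a signal intensity and a detection p-value per array, with 27.1% to 30.2% of intensities below 0. The deposited processed table holds intensities of 38223 of these probes, with a lowest value of 12.07 and array medians between 25.03 and 26.42. Background correction and normalization of it are not given in the sources used here. The submitters' processing notes name GenomeStudio (version not given in the sources used here). All per-sample columns were used (0 left out).

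Deposited processed intensities were taken to log2 and used as given. Probes with a detection p-value below 0.01 on at least 2 arrays were kept (16216), and the detection p-values printed for a sample are those of the array its processed column matched. The 5 group means were estimated jointly over the 12 arrays by limma 3.58.1 (R 4.3.3) (7 residual and 3.70 prior degrees of freedom, prior SD 0.147), with Benjamini-Hochberg adjustment over all kept probes and a threshold of 0.05. The number of arrays limits the precision. The procedure was tested on simulated data.

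The planned analysis used the non-normalized table (limma's neqc, offset 16, 18285 probes kept) with arrays assigned by description. It was replaced as the main analysis after the tables were found to disagree and both sets of results had been seen, and it is reported as differences from control for each member and as counts and ranges otherwise. Alternatives were median centring, no detection filter, 3 arrays in place of 2, only the compared groups, array weights, the replicate number as a block, and leaving out each array. The non-normalized table matched by values, also with an offset of 50 and with medians instead of quantiles equalised, was added after seeing the data.

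The members and the gene lists were chosen with earlier results of these data known. All 10 member probes are named, the 5 genes named for likeness are those with the highest Pearson r to the members' mean, and pathway genes and the markers MITF, SOX10 and LUM come from fixed lists. Probe names are from a platform annotation of the processed table's probes (27004 with 1 gene symbol, 4 with several, 11215 with none). For a list gene with several kept probes the brightest was used. Arrays of equal replicate number did not deviate together between the drugs at 8 h (r -0.09 to 0.03, 3 pairs), and 6 of 21 same-numbered pairs over all groups had r above 0.1 (range -0.25 to 0.36, the highest between the drugs at 24 h). Pairing was therefore not assumed.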

Additional observations from a re-analysis of the deposited data

Results flagged for a closer look

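The effects of ciclopirox at 24 h and at 8 h, against the same 2 controls, differed on 7 probes by limma's test of the difference (adjusted p below 0.05). The 24 h effect was higher by 0.45 on the log2 scale for NDRG1, 0.53 for DDIT4, 0.82 for VEGFA ILMN_2375879 and 0.82 for VEGFA ILMN_1803882. The 24 h minus 8 h difference was -0.49 for BNIP3, -1.05 for PFKFB4 and -0.39 for PFKFB3. For crizotinib 3 probes differed, with 24 h minus 8 h differences of 0.56 for DDIT4, -0.87 for ADM and 0.75 for PFKFB4. PFKFB4 thus moved in opposite directions between the times of the 2 drugs. Whether the drugs' changes over time differ from each other was not tested. No group had 4 arrays or more, so single arrays were not screened for distance from their group.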

How the results depend on the processing

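Values that follow the sample columns of the processed table kept their direction whenever they were called under either setting (0 reversals over 810 values from 9 other settings with all arrays and 1080 values from leaving out an array). Of these, 35 and 76 lost their call, 30 and 13 gained one, and 14 and 13 changed sign without being called. Of 90 values, assigning the non-normalized arrays by description turned the direction of 22 that were called under at least 1 of the assignments. Another 21 changed sign without being called under either, 27 lost their call and 1 gained one. The cause was not tested. ANGPTL4 then differed from control by -0.31 at 8 h and -0.032 at 24 h of ciclopirox and by 1.38 at 24 h of crizotinib, where ADM differed by 0.53 and PFKFB3 by 0.030. Between the drugs at 8 h the turned values were -0.14 for ANGPTL4, -0.086 and -0.15 for VEGFA ILMN_2375879 and ILMN_1803882, -0.18 for BNIP3 and -0.20 for PFKFB3. At 24 h they were -0.19 for DDIT4, -1.42 for ANGPTL4, -0.79 for BNIP3 and -0.34 for ADM, and over both times -0.78 for ANGPTL4, -0.48 for BNIP3, -0.52 for ADM and -0.33 for PFKFB3. From 8 h to 24 h they were -0.046 for NDRG1, -0.069 for DDIT4 and 0.16 for PFKFB3 under ciclopirox, and 0.18 for ADM under crizotinib. The number of the 10 probes called by description was 1 for ciclopirox at 8 h against control and 0 in the other 8 comparisons by limma. The count of all probes called against control by description was 522 for ciclopirox at 8 h (90 by sample column), 1 at 24 h (2208), and 0 and 0 for crizotinib (234 and 2950).

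For ciclopirox at 8 h against control the count of 3 became 1 with only the compared groups in the fit, 5 with array weights and 7 with the matched non-normalized table at an offset of 50. Over all probes the 90 calls became 4, 268 and 224 in the same order. For crizotinib at 8 h the count of 2 became 0 with no detection filter, with only the compared groups and with the replicate block, by limma. Over all probes the 234 calls became 62, 43 and 118. For ciclopirox between the times, 7 became 4 with no filter, and calls over all probes fell from 2622 to 1167. For crizotinib between the times, 3 became 5 with the matched non-normalized table at either offset. There, calls over all probes rose from 3028 to 3705 at an offset of 16 and 4101 at 50. The replicate block left the other 8 counts within 1.5 times (2 for ciclopirox at 8 h, 6 in 5 comparisons and 8 and 4 in the remaining 2), and the numbers share no stated origin. Leaving out 1 array gave 0 to 4 called for ciclopirox at 8 h, 5 to 8 at 24 h, 0 to 2 and 3 to 6 for crizotinib at 8 h and 24 h, 4 to 7, 6 to 7 and 7 to 8 between the drugs at 8 h, 24 h and over both, and 3 to 8 and 2 to 3 between the times of ciclopirox and crizotinib. Offset 50 and normalization by median in place of quantile were run only on the matched non-normalized table, since the processed table was already normalized. ANGPTL4 under crizotinib, and VEGFA ILMN_1803882 at 24 h of it, have only bounds because of their signal over background.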
